A study of Mus musculus with 16 samples.

Results

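The comparison described here sets the tibialis anterior muscle of mice 4 h after a single injection of formoterol against that of mice 4 h after saline. It holds 8 of the 16 mice of the study, 4 in each group, chosen by the titles of their arrays alone. The formoterol mice received 100 µg/kg intraperitoneally in saline, and the saline mice received the vehicle. All were male C57BL/10 ScSn mice, 6 to 7 weeks old, and the other 8 mice were killed 1 h after the same injections. RNA of each mouse was hybridised to 1 array of its own, on which 46120 probes were read. Of these, 7596 probes (16.47%) were used, those that the scanner software gave a full detection score of 1 in 4 or more of the 16 mice. The values below are the deposited ratio of a probe's intensity to the median of these 7596 probes on its array. A value of 1 is thus the level of the median probe among the 7596. A change is log2 of formoterol over saline with its standard error (SE). P values are those of limma after Benjamini-Hochberg adjustment across these 7596 probes, and a probe counts as called below an adjusted p of 0.05. The files do not pair probes with names. A gene number in the probe's ID named 2591 probes (34.1%) of 2388 genes, and 78 further probes were recognised by the values the study printed for its own selected genes. The 78 are written as matched probes. They were chosen by the study on these arrays, so their size is no separate evidence, and no gene list includes them. A further 32 of the study's selected genes were matched and also named by ID, among them Mt1, Srxn1, Cebpb and Foxo1. The same limit holds for the size of their changes, and gene lists do include such genes. The lists were also drawn up with earlier results of these data known, so their shares are descriptions.

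Formoterol is a long-acting agonist of the β2-adrenoceptor, the main β-adrenoceptor of skeletal muscle fibres. The receptor couples through Gs to adenylyl cyclase, and the cyclic AMP that forms activates protein kinase A, which phosphorylates CREB and thereby turns on genes with a cyclic AMP response element, many of which code for transcription factors or for enzymes that damp the signal. In muscle the pathway is known for raising glycogen breakdown and fuel use within minutes and for increasing fibre size when the agonist is given for weeks. The tibialis anterior of the mouse consists mainly of fast type II fibres, and the samples also contain vessels, connective tissue, nerve and blood. The agonist was given to the whole animal, so the muscle was exposed to the drug and to whatever the drug did elsewhere.

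At 4 h formoterol was followed by a rise of metallothioneins, sulfiredoxin, the coactivator Ppargc1a and a group of transcription factors, and by a fall of the clock output gene Dbp, the growth arrest gene Cdkn1c and replication-type H2A histones. In all, 977 of 7596 probes were called (12.9%), 560 of them higher (7.37%) and 417 lower (5.49%) in formoterol mice. The called changes were mostly small, with a median of 1.46-fold for the rises and 1.36-fold for the falls, and the median change over all 7596 probes was 0.02 on the log2 scale. Past a log2 change of 0.89, the fold limit used in the study, there were 162 called probes (2.13%), 132 higher (1.74%) and 30 lower (0.395%). The asymmetry grew with size: 99 probes rose and 19 fell by at least 2-fold, and 12 rose and 0 fell by at least 4-fold. Among genes named by ID, 288 of 2388 (12.1%) were called. The 8 mice fell into separate ranges at 1468 probes (19.3%), and 921 of the 977 called probes were among these.

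**Figure D1:**
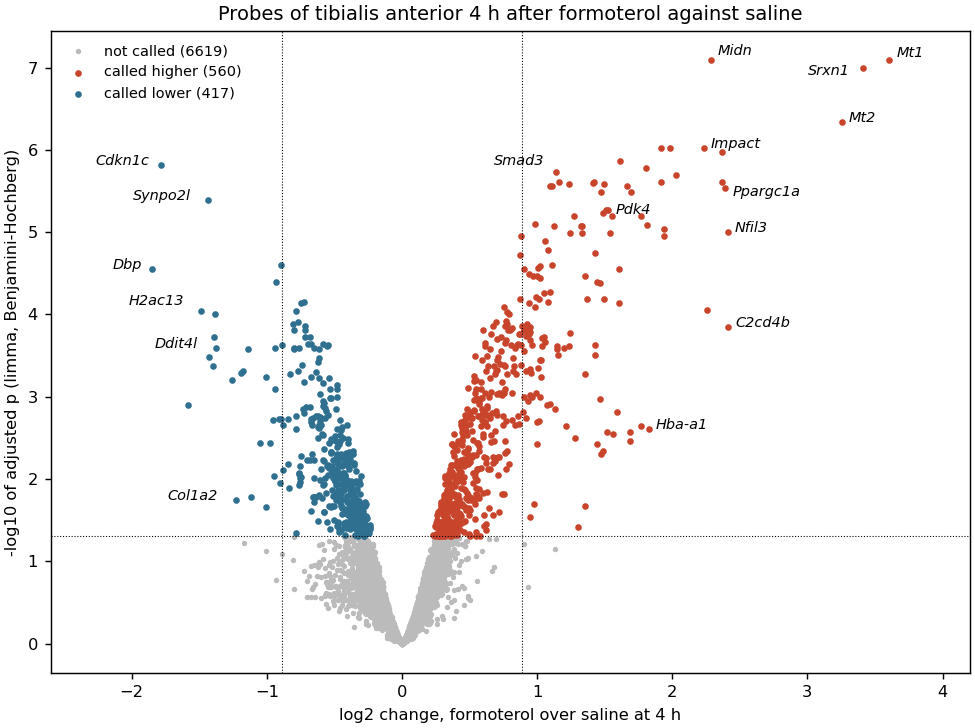
Change at 4 h (horizontal axis, log2 of formoterol over saline, 4 mice each) against the adjusted p of limma (vertical axis, −log10) for 7596 probes, with called rises and falls coloured and genes of the text labelled. The right arm, with Mt1, Srxn1 and Mt2 beyond a log2 change of 3, reaches farther out than the left arm, which ends near Dbp at -1.85.

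The arrays themselves differed in brightness, with a median intensity of the 7596 probes of 393 to 601 in formoterol mice and 453 to 746 in saline mice, which the ratio scales to the same level. Saline mouse 2, the brightest array, stood apart: its correlation with the other saline arrays over log2 ratios was 0.956 to 0.976, against 0.986 to 0.991 among the remaining saline arrays and 0.988 to 0.992 among formoterol arrays. Without it 980 probes were called, 538 higher and 442 lower, and 140 were called past the study's fold limit, of which 135 were among the 162. On slide 1 the 3 saline arrays lay in positions A to C and the 3 formoterol arrays in D to F. On slide 2 saline lay in A and formoterol in B, followed by arrays of the 1 h mice. Saline thus came before formoterol on each slide, so the order on the slide and treatment cannot be told apart. In the t-test named in the study's methods, on the same log2 ratios, 394 probes were called, and of the genes described below it did not call Angptl4, Atp1b4, Bmpr1a, Cav1, Ccng1, Chrna1, Col1a1, Col1a2, Col22a1, Col6a3, Cxcl14, Dnajb2, E2f6, Eif5, Eng, Fth1, H2ac10, H2ac20, H2ac22, H4c18, H4c6, H4c9, Hba-a1, Hspa8, Id3, Igfbp4, Igfbp5, Junb, Klhl40, Ly6e, Noct (probe named by ID), Nr1d2, Nr4a2 (first probe), Pfkm (dimmer probe), Prnd, Rbm20, Rora, Scd2, Slc25a25, Sqstm1, Stat3 (second probe), Tcf4, Xbp1 or Zfp36l1. The change between the 2 mice on slide 2 had the same direction as that on slide 1 at 970 of the 977 called probes (99.3%), against 62.5% of all probes. Slide 2 entered the fit that made the calls, so this share is a description.

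The largest rises belonged to genes that bind metals or repair oxidised proteins. Mt1, a metallothionein that binds zinc and copper, measured 55.4, 44.1, 60.8 and 56.2 in formoterol mice, against 3.30, 4.90, 4.90 and 4.78 in saline mice (log2 change 3.61, SE 0.14, adjusted p = 8.2e-08). Every formoterol mouse lay far above every saline mouse, and the spread within each group was small beside the gap. Srxn1, the sulfiredoxin that reactivates over-oxidised peroxiredoxins, measured 6.37, 7.88, 7.42 and 8.22 in formoterol mice, against 0.681, 0.530, 0.774 and 0.864 in saline mice (log2 change 3.41, SE 0.14, adjusted p = 1e-07). A second Srxn1 probe was detected in all 4 formoterol mice and in 0 of 4 saline mice, and was at least 4.63-fold higher with formoterol, adjusted p = 2.46e-06. Mt2, a matched probe for the neighbouring metallothionein gene, measured 6.49, 3.88, 5.96 and 4.36 in formoterol mice, against 0.460, 0.514, 0.545 and 0.615 in saline mice (log2 change 3.25, SE 0.16, adjusted p = 4.55e-07). The Mt2 probe was detected in only 1 of the 4 saline mice, so its change is fitted largely against undetected values. All 3 genes separated the groups without overlap. The list of oxidative stress defence had a median change of 0.08, against 0.02 over all named genes. In it 5 of 21 measured genes rose (23.8%, against 6.99% of all named genes) and 0 fell. Besides Mt1 and Srxn1 these were Osgin1, an Nrf2 target (0.54), and the ferritin genes Ftl1 (0.44) and Fth1 (0.40, adjusted p = 0.0348), the last named after its value was seen. The remaining 16, among them the peroxiredoxin genes and Sod1, were not called, with log2 changes of -0.27 to 0.26.

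The stretches before the starts of these genes are shown because they hold the letters through which metals, AP-1 and cyclic AMP are known to act on promoters, together with that of Slc25a25, a gene that rose by 1.59 and is described with the mitochondrial genes. The sequences are from RefSeq (GRCm38.p6), lie within the 250 bases before a start of the gene and are written in the direction of transcription. Only starts with a marked motif are shown. The motifs searched on both strands were the metal response element in the forms TGCACNC and TGCGCNC, the AP-1 site TGANTCA, the full cyclic AMP response element TGACGTCA and the D-box TTANGTAA. Capitals mark metal response elements in Mt1 and Mt2, AP-1 sites in Srxn1 and the cyclic AMP response element in Slc25a25.
Mt1 (chr8:94178859-94179088, plus strand): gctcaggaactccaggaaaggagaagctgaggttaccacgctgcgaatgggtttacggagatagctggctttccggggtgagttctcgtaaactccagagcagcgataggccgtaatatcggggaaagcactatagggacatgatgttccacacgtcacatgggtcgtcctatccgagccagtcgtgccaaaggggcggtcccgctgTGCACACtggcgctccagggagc
Mt2 (chr8:94172388-94172617, plus strand): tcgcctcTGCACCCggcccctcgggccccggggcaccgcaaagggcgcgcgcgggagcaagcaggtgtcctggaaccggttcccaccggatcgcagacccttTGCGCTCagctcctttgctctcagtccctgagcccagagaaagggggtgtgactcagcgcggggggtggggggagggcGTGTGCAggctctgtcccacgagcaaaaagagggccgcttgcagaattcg
Srxn1 (chr2:152105414-152105523, plus strand): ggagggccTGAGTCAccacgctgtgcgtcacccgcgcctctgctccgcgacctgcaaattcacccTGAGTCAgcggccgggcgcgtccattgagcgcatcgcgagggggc
Slc25a25 (chr2:32424067-32424226, minus strand): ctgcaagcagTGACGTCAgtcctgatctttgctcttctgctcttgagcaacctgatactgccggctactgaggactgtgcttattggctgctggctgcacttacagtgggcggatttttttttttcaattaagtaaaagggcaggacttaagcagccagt
The Mt1 stretch holds 1 metal response element and the Mt2 stretch 3, the Srxn1 stretch holds 2 AP-1 sites and the Slc25a25 stretch 1 full cyclic AMP response element. Another start of Slc25a25, not shown, had a match to TGCGCNC and none to the full cyclic AMP response element. Left in lower case are 1 match to the AP-1 site in Mt2, 1 to TGCGCNC in Srxn1 and 1 to the D-box in Slc25a25. Over all 32851 promoters of the table, 10.4% hold TGCACNC, 12.5% TGCGCNC, 6.75% TGANTCA, 1.55% TGACGTCA and 2.06% TTANGTAA. Among promoters of genes called higher the shares were 11.9%, 18.9%, 5.33%, 2.05% and 0.82% in the same order, and among measured genes that were not called 9.6%, 23.5%, 4.73%, 3.04% and 1.61%. A match is only a run of letters and says nothing of binding.

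Genes that act in cyclic AMP signalling were few among the measured ones. Pde4d, a phosphodiesterase that hydrolyses cyclic AMP, measured 2.25, 2.35, 2.51 and 2.46 in formoterol mice, against 0.605, 0.524, 0.682 and 0.739 in saline mice (log2 change 1.92, SE 0.10, adjusted p = 9.55e-07). Crem (matched probe), a CREB family factor whose short products repress cyclic AMP response elements, measured 1.31, 1.74, 1.59 and 1.65 in formoterol mice, against 0.401, 0.412, 0.482 and 0.502 in saline mice and was at least 2.75-fold higher with formoterol, adjusted p = 1.65e-06. This form of value is used wherever a probe went undetected on every array of one group. It is a lower bound only where the arrays of the other group detected the probe. Pde4d was the only called gene of the 8 measured in the cyclic AMP list (12.5%, close to the 12.1% of all named genes) with each gene read at its brightest probe. A dimmer probe of Akap9, which anchors protein kinase A, fell (-0.28, adjusted p = 0.0188). The others, including the adenylyl cyclase gene Adcy6 and the Gs gene Gnas, had log2 changes of -0.37 to 0.11.

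Of the immediate-early and AP-1 genes, 5 of 12 rose (41.7%, against 6.99% of all named genes) and 1 fell (8.33%, against 5.07%). The list's median was 0.38. Cebpb, a bZIP factor that responds to cyclic AMP, measured 10.8, 9.50, 13.3 and 9.79 in formoterol mice, against 2.57, 3.04, 3.74 and 3.38 in saline mice (log2 change 1.77, SE 0.13, adjusted p = 6.31e-06). The lowest formoterol mouse lay well above the highest saline mouse. Nr4a2, the orphan nuclear receptor Nurr1, measured 0.710, 1.07, 0.872 and 0.779 in formoterol mice, against 0.376, 0.285, 0.383 and 0.544 in saline mice and was at least 1.49-fold higher with formoterol, adjusted p = 0.00143. Its second probe was detected in 1 formoterol mouse and in 0 saline mice (1.14-fold higher with formoterol, adjusted p = 0.00112). As most of the formoterol values were undetected too, the 1.14-fold is no lower bound. Klf4, a zinc finger factor, measured 1.48, 1.76, 1.35 and 1.39 in formoterol mice, against 0.551, 0.904, 0.659 and 0.617 in saline mice (log2 change 1.15, SE 0.14, adjusted p = 0.000262), and Junb, a subunit of AP-1, was at least 1.39-fold higher with formoterol, adjusted p = 0.00172. The AP-1 subunit gene Fosl2 also rose (0.75) and Zfp36l1, which promotes decay of AU-rich mRNAs, fell (-0.51, adjusted p = 0.0312), both named after their values were seen. In the t-test of the study's methods, run on the same log2 values, 3 of the list's rises and 0 of its falls were called, with Junb and the first Nr4a2 probe the rises that were lost, and the fall of Zfp36l1 was also lost without any 1 of formoterol mice 2, 3 and 4 and of saline mouse 1.

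**Figure D2:**
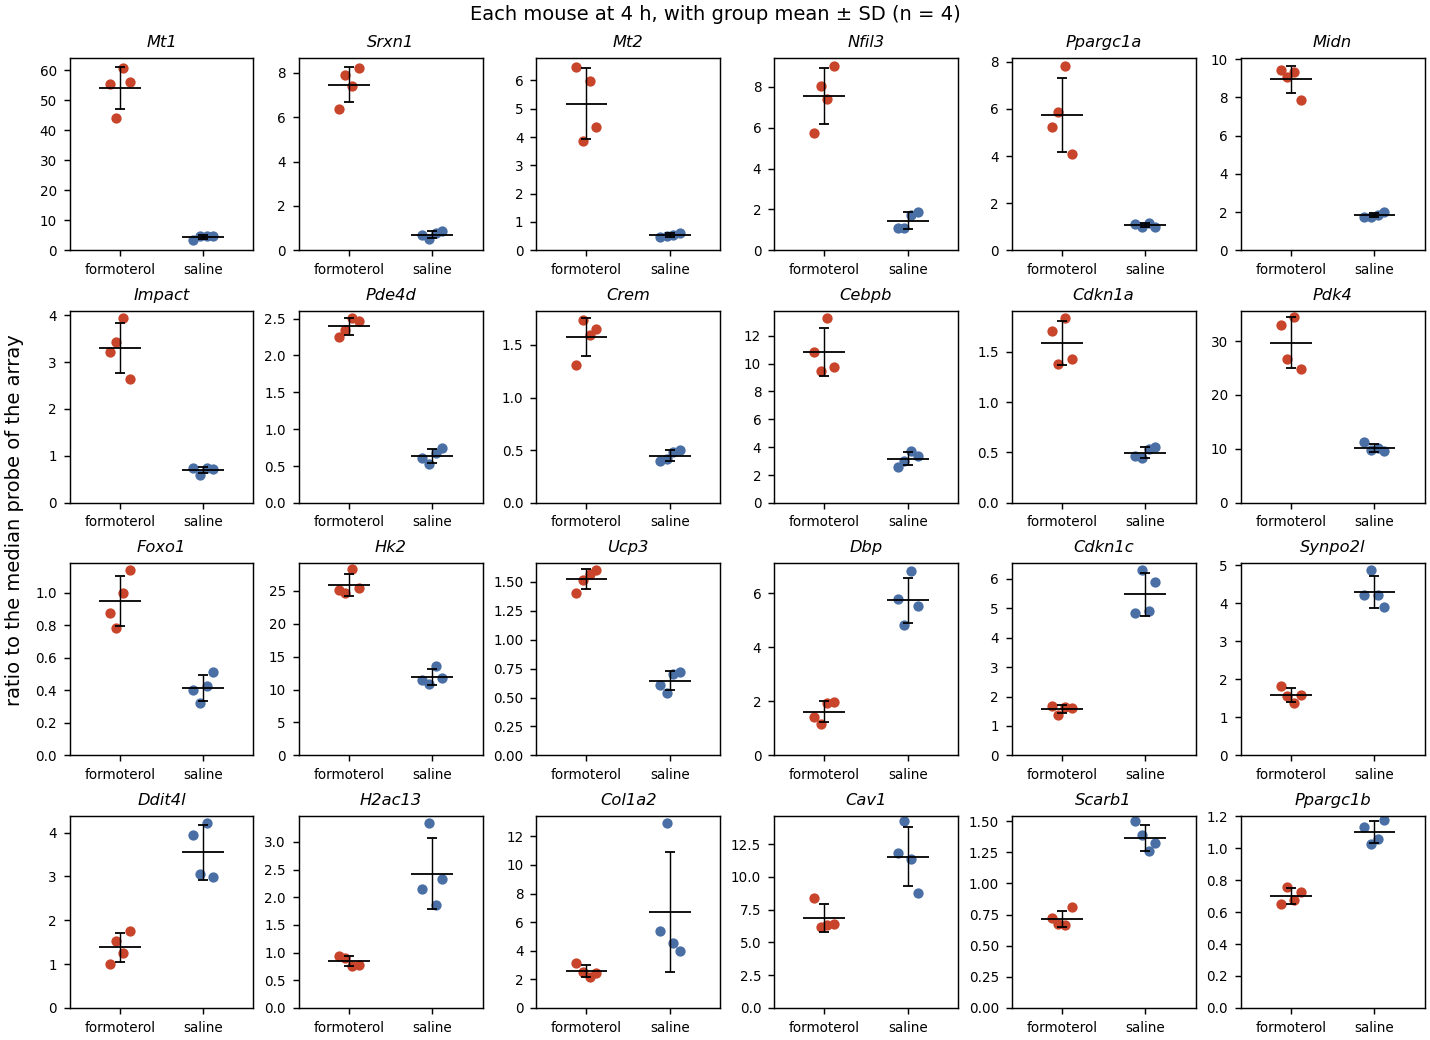
Ratio to the median of the 7596 used probes on the array (vertical axes, from 0) of 24 genes in each of the 4 formoterol mice (left in each panel) and the 4 saline mice (right), 1 point per mouse, with a line at the mean and bars of 1 SD. The groups are separate in every panel, and the widest spread relative to a group mean is that of Col1a2 in saline mice, through mouse 2.

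Genes of fuel selection and mitochondrial control moved in both directions. Ppargc1a (matched probe), the coactivator of mitochondrial biogenesis, measured 5.24, 5.86, 7.82 and 4.09 in formoterol mice, against 1.14, 0.977, 1.16 and 0.998 in saline mice (log2 change 2.39, SE 0.16, adjusted p = 2.94e-06). Ppargc1b, its close relative, measured 0.648, 0.756, 0.675 and 0.726 in formoterol mice, against 1.13, 1.03, 1.06 and 1.18 in saline mice (log2 change -0.65, SE 0.08, adjusted p = 0.000256). The relatives thus moved in opposite directions, each with separate groups. Slc25a25, which carries ATP-Mg and phosphate across the inner mitochondrial membrane, measured 2.50, 1.89, 2.30 and 1.93 in formoterol mice, against 0.385, 0.712, 1.11 and 0.842 in saline mice (log2 change 1.59, SE 0.25, adjusted p = 0.00154). Pdk4, the kinase that switches off pyruvate dehydrogenase, measured 33, 26.7, 34.4 and 24.9 in formoterol mice, against 11.3, 9.89, 10.2 and 9.58 in saline mice (log2 change 1.53, SE 0.11, adjusted p = 5.46e-06), and Ucp3, an uncoupling protein of muscle, measured 1.40, 1.52, 1.57 and 1.6 in formoterol mice, against 0.613, 0.543, 0.706 and 0.725 in saline mice (log2 change 1.24, SE 0.10, adjusted p = 1.04e-05). Both are matched probes and were higher in every formoterol mouse. Hk2, the muscle hexokinase, measured 25.2, 24.7, 28.3 and 25.4 in formoterol mice, against 11.4, 10.9, 13.6 and 11.8 in saline mice (log2 change 1.12, SE 0.09, adjusted p = 8.35e-06), and Lpin1, a phosphatidate phosphatase and transcriptional coactivator, measured 4.76, 4.27, 5.14 and 4.75 in formoterol mice, against 2.35, 2.36, 2.63 and 2.01 in saline mice (log2 change 1.02, SE 0.10, adjusted p = 3.58e-05). These too are matched probes whose groups did not overlap.

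In the list of fatty acid handling, 5 of 20 measured genes rose and 2 fell (35%, against 12.1% of all named genes), with a median of 0.14. The rises were 3 without formoterol mouse 1 or 4 or saline mouse 1 and on slide 1 alone, and the methods' t-test called 2. Angptl4, an inhibitor of lipoprotein lipase, measured 2.01, 1.25, 1.33 and 0.810 in formoterol mice, against 0.539, 0.399, 0.409 and 0.528 in saline mice and was at least 2.26-fold higher with formoterol, adjusted p = 0.00106. Formoterol mice varied more than 2-fold among themselves at this gene but stayed above saline. Plin4, a lipid droplet coat protein, measured 8.33, 6.25, 9.92 and 7.92 in formoterol mice, against 3.41, 3.33, 4.40 and 4.83 in saline mice (log2 change 1.02, SE 0.15, adjusted p = 0.00101), and Scarb1, the high-density lipoprotein receptor, measured 0.725, 0.674, 0.665 and 0.807 in formoterol mice, against 1.5, 1.39, 1.26 and 1.32 in saline mice (log2 change -0.93, SE 0.09, adjusted p = 4.05e-05). Gpat3, an acyltransferase of triglyceride synthesis, was at least 2.36-fold higher with formoterol, adjusted p = 1.02e-05, while Acaca, the acetyl-CoA carboxylase, rose by 0.47 and the desaturase gene Scd2 had a change of -0.50, a fall. Among 23 genes of glucose and glycogen metabolism, read at the brightest probe, only Tkt, the transketolase of the pentose phosphate pathway, was called (0.67, adjusted p = 0.00014), and a dimmer probe of Pfkm, the muscle phosphofructokinase, rose as well (0.54, adjusted p = 0.00511). The 51 genes of oxidative phosphorylation gave 0 calls with limma and 0 with the methods' t-test, 1 rise and 2 falls at an unadjusted p under 0.05, and a median change of 0.06. Under quantile normalization 3 of them were called lower, and without saline mouse 4 there were 5. Of 10 genes of the tricarboxylic acid cycle 1 was called (10%, against 12.1% of all named genes), the fall of Idh1, the cytosolic isocitrate dehydrogenase (-0.39). Of 19 mitochondrial carriers and import genes 4 rose (21.1%, against 6.99% of all named genes), with Slc25a22, a glutamate carrier (0.70), after Slc25a25. There were 2 rises without formoterol mouse 1 or 4 or saline mouse 1 and on slide 1 alone, and 1 in the methods' t-test.

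Genes of the circadian clock and its outputs included a large rise and a large fall. Nfil3 (matched probe), a repressor that binds the same D-box element as Dbp, measured 5.76, 8.03, 7.43 and 9.01 in formoterol mice, against 1.09, 1.10, 1.74 and 1.86 in saline mice (log2 change 2.41, SE 0.19, adjusted p = 9.89e-06). Dbp (matched probe), an activator driven directly by the core clock, measured 1.44, 1.15, 1.93 and 1.97 in formoterol mice, against 5.79, 4.82, 6.84 and 5.54 in saline mice (log2 change -1.85, SE 0.17, adjusted p = 2.84e-05). The genes moved in opposite directions, and neither showed an overlap between the groups. The clock list, which holds neither of them, had a median of 0.49. In it 5 of 7 measured genes rose (71.4%, against 6.99% of all named genes) and 0 fell. Among these were the nuclear receptor genes Nr1d2 (at least 1.33-fold) and Rora (0.40, adjusted p = 0.0255, named after its value was seen), the deadenylase gene Noct (0.67, adjusted p = 0.0271, and 1.00, adjusted p = 0.000454, at a matched probe) and the kinase gene Csnk1d (0.49, adjusted p = 0.0042). Clock and Csnk1e were not called, both with a change of 0.05. Only 3 of the 7 were called without formoterol mouse 1 or 3 or without saline mouse 1 or 3, and on slide 1 alone, and the highest adjusted p of Noct at the probe named by ID with a mouse left out was 0.0882. Mice of both groups were injected early in the light phase.

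Growth signalling genes were mixed. Smad3 (matched probe), a mediator of myostatin and TGF-β signals, measured 7.76, 8.22, 8.41 and 8.72 in formoterol mice, against 3.83, 3.74, 3.71 and 3.76 in saline mice (log2 change 1.14, SE 0.07, adjusted p = 1.85e-06). Id1 (matched probe), an inhibitor of myogenic bHLH factors, measured 1.21, 1.10, 1.04 and 1.29 in formoterol mice, against 0.562, 0.547, 0.567 and 0.747 in saline mice (log2 change 0.94, SE 0.11, adjusted p = 0.000202). Stat3, the transducer of interleukin-6 type cytokines, measured 2.26, 2.23, 1.80 and 1.77 in formoterol mice, against 1.13, 0.866, 1.03 and 1.24 in saline mice at one probe (log2 change 0.92, SE 0.12, adjusted p = 0.000485), and a second probe gave a change of 0.82 (adjusted p = 0.000343). In the list of myostatin, TGF-β and BMP genes, 2 of 12 rose (16.7%, against 6.99% of all named genes) and 2 fell (16.7%, against 5.07%). The falls were those of the receptor genes Bmpr1a (-0.54, adjusted p = 0.0074) and Acvr1 (-0.49, adjusted p = 0.00141), and the rises were those of the co-receptor gene Eng (0.42) and of Id3 (0.40), a relative of Id1. Leaving out single mice raised the adjusted p of Eng to 0.103 at most (any formoterol mouse, saline mouse 1 or 3) and that of Id3 to 0.0566 (formoterol mouse 4).

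Foxo1, a factor that drives atrophy and fasting genes, measured 0.878, 0.781, 0.997 and 1.14 in formoterol mice, against 0.403, 0.320, 0.425 and 0.513 in saline mice and was at least 1.65-fold higher with formoterol, adjusted p = 0.000255. Ddit4l (matched probe), an inhibitor of mTORC1 signalling, measured 0.998, 1.52, 1.25 and 1.75 in formoterol mice, against 3.96, 3.05, 4.22 and 2.98 in saline mice (log2 change -1.38, SE 0.17, adjusted p = 0.000256). Both genes separated the groups, in opposite directions. Igfbp5, the main insulin-like growth factor binding protein of muscle, measured 4.36, 5.53, 5.29 and 4.65 in formoterol mice, against 8.56, 12.1, 7.02 and 6.65 in saline mice (log2 change -0.76, SE 0.17, adjusted p = 0.0108). Of the 14 genes of the IGF, Akt, mTOR and FoxO list 3 were called (21.4%, against 12.1% of all named genes). Foxo1 rose, and Igfbp5 and Igfbp4 (-0.35) fell, the last with an adjusted p of up to 0.0987 when any 1 of formoterol mice 1 to 3 or saline mice 1 and 3 was left out. Of 13 cell cycle and growth arrest genes 2 rose and 1 fell (23.1%, against 12.1% of all named genes), with a median of 0.06. The rises were those of Cdkn1a and of Ciapin1, a factor of iron-sulphur protein assembly (1.02), and the fall was that of Ccng1, cyclin G1 (-0.31, adjusted p = 0.032), which was lost without any 1 of formoterol mice 1 to 3 or saline mice 1 to 3. Cdkn1a, the cell cycle inhibitor p21, measured 1.71, 1.38, 1.84 and 1.42 in formoterol mice, against 0.463, 0.445, 0.530 and 0.555 in saline mice and was at least 2.77-fold higher with formoterol, adjusted p = 2.77e-06. Cdkn1c (matched probe), the inhibitor p57, measured 1.67, 1.39, 1.65 and 1.62 in formoterol mice, against 4.83, 6.29, 4.90 and 5.90 in saline mice (log2 change -1.79, SE 0.10, adjusted p = 1.51e-06). These inhibitors of cyclin-dependent kinases thus moved in opposite directions, and Plk3 (matched probe), a stress-responsive kinase, was at least 2.67-fold higher with formoterol, adjusted p = 8.26e-06.

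Of 27 genes listed for ubiquitin and muscle atrophy, 7 rose (25.9%, against 6.99% of all named genes) and 0 fell, with a median of 0.06. Fbxo34, an F-box protein of ubiquitin ligases, measured 1.90, 2.09, 2.36 and 1.79 in formoterol mice, against 1.00, 0.818, 0.946 and 1.08 in saline mice (log2 change 1.08, SE 0.11, adjusted p = 6.98e-05). The formoterol mice lay about 2 times above saline at this gene. The polyubiquitin gene Ubb (0.45, adjusted p = 0.00292) and the fusion gene Rps27a (0.34, adjusted p = 0.0104) rose less, and neither was called under quantile normalization. The ubiquitin coding genes share nearly identical repeats, so their probes may read each other's transcripts. Of 20 proteasome subunits 0 were called by limma and 0 by the methods' t-test, with 1 rise and 1 fall at an unadjusted p under 0.05 and a median of 0.01. Of 20 autophagy and lysosome genes 4 rose (20%, against 6.99% of all named genes), and 2 rose without formoterol mouse 4. The larger changes were those of Ifi30, a lysosomal thiol reductase (at least 1.77-fold higher), and Sqstm1, the autophagy receptor p62 (0.63, adjusted p = 0.00225). The ubiquitin list gave 5 rises without any 1 of formoterol mice 2 to 4 or saline mice 1 to 3.

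Among genes of protein synthesis, Impact, which restrains the amino acid sensing kinase GCN2, measured 3.22, 3.42, 3.93 and 2.65 in formoterol mice, against 0.737, 0.595, 0.753 and 0.712 in saline mice (log2 change 2.23, SE 0.12, adjusted p = 9.55e-07). The groups did not overlap. Of 32 translation factors 4 rose (12.5%, against 6.99% of all named genes), 2 of them on slide 1 alone. Of 9 amino acid response and tRNA synthetase genes 3 rose (33.3%), 2 without any 1 mouse other than saline mouse 4. Impact is in both lists, with Aars, the alanyl-tRNA synthetase gene, at 0.41 (adjusted p = 0.0035) and the initiation factor gene Eif5 at 0.39 (adjusted p = 0.00519). The 65 ribosomal protein genes gave 1 rise, Rps27a, and a median of -0.06. Under quantile normalization that rise was lost and 8 were called lower. In the heat shock and unfolded protein list 4 of 28 rose (14.3%, against 6.99% of all named genes). The co-chaperone gene Dnajb2 (0.76) and Xbp1, a factor of the unfolded protein response (0.74), came ahead of Hspa8, the constitutive HSC70 gene (0.41). None of the list's 4 rises was called by the methods' t-test. Hspa8 was not called after quantile normalization, and 2 of the list rose on slide 1 alone.

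**Figure D3:**
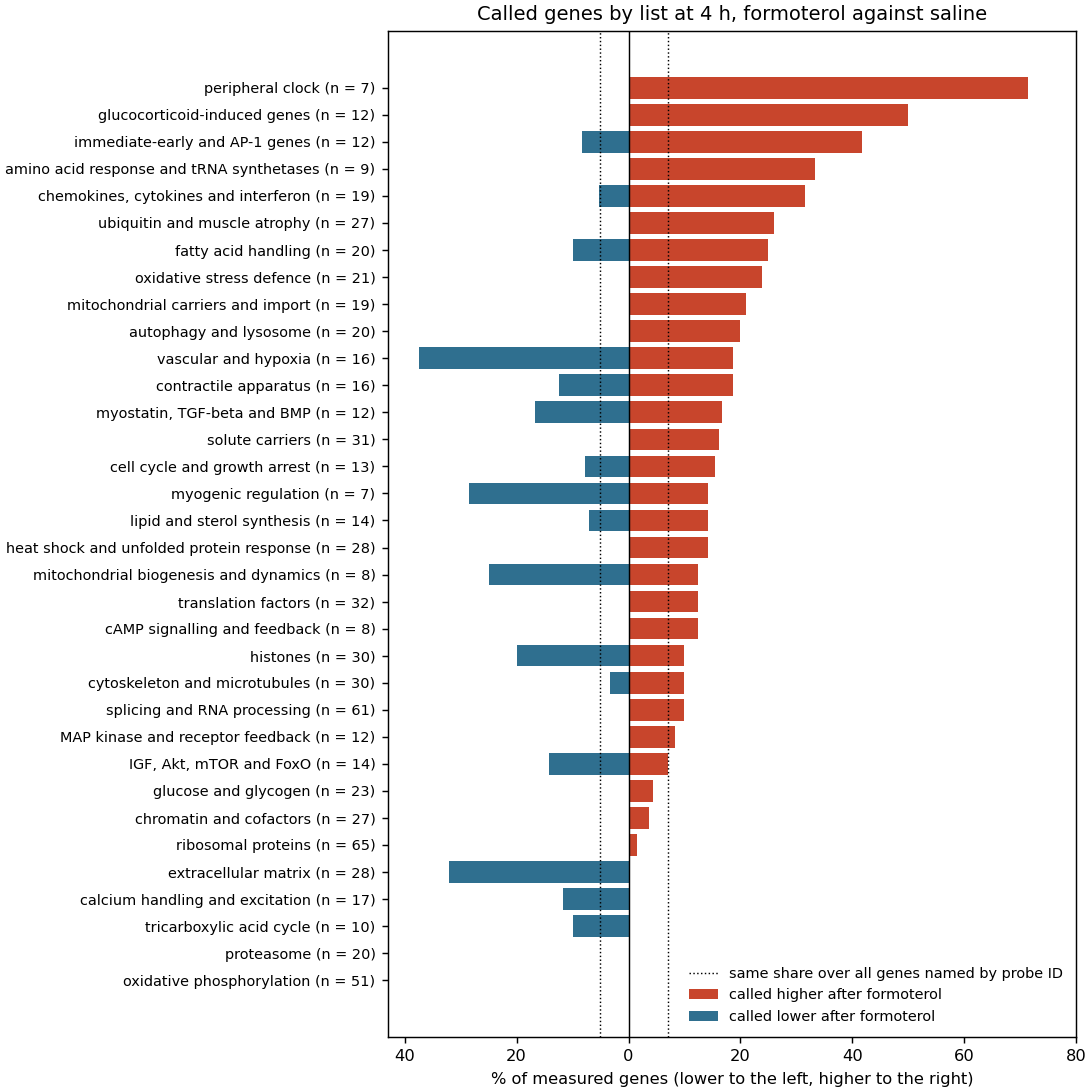
Called genes of each list with at least 7 measured members, as percent of the measured genes (horizontal axis), rises to the right and falls to the left, with the number measured beside each list. The dotted lines mark the shares over all genes named by ID, 6.99% higher and 5.07% lower, and the clock and glucocorticoid lists reach farthest right and the extracellular matrix and vascular lists farthest left. The lists share members and were drawn up with earlier results of these data known, so the bars are a description.

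The falls included a run of replication-type histones. H2ac13 measured 0.947, 0.903, 0.759 and 0.774 in formoterol mice, against 2.16, 3.34, 1.86 and 2.33 in saline mice (log2 change -1.49, SE 0.16, adjusted p = 9.04e-05), H2ac24 measured 1.01, 1.24, 0.955 and 1.03 in formoterol mice, against 2.31, 3.99, 2.27 and 2.77 in saline mice (log2 change -1.39, SE 0.16, adjusted p = 0.000188), and H2ac22 measured 0.753, 0.845, 0.751 and 0.749 in formoterol mice, against 1.74, 2.65, 1.56 and 2.30 in saline mice (log2 change -1.38, SE 0.15, adjusted p = 9.77e-05). Each formoterol mouse lay below each saline mouse. H2ac10 (-1.14) and H2ac12 (at least 1.19-fold lower) fell too, and H2ac20 (-0.46, adjusted p = 0.00838) was the sixth fall, named after its value was seen. All 6 falls among 30 measured histone genes (20%, against 5.07% of all named genes) were H2A genes. These are nearly identical in sequence, so their probes may read the same transcripts and are not 6 separate measurements. The 3 rises (10%, against 6.99%) were H4 genes, H4c6 (0.39), H4c18 (0.34) and H4c9 (0.31), also seen afterwards and also near-identical. They were all lost without formoterol mouse 3 or saline mouse 1, whereas 6 to 8 falls were counted with each mouse left out. The list's median was 0.03.

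In the extracellular matrix list, 0 of 28 measured genes rose and 9 fell (32.1%, against 5.07% of all named genes). The list's median was -0.30, against 0.02 over all named genes. Col1a2, a chain of collagen I, measured 3.16, 2.48, 2.19 and 2.44 in formoterol mice, against 5.37, 12.9, 4.53 and 4.00 in saline mice (log2 change -1.23, SE 0.30, adjusted p = 0.0182). Saline mouse 2 was far above the other saline mice, and the groups still did not overlap. Col1a1, the other chain of collagen I, measured 10.0, 9.03, 7.32 and 11.8 in formoterol mice, against 15.5, 13.5, 14.1 and 15.9 in saline mice (log2 change -0.65, SE 0.13, adjusted p = 0.00594). Col22a1, a collagen of the muscle-tendon junction, had a change of -0.49 (adjusted p = 0.0055) and Col6a3 one of -0.49 (adjusted p = 0.018), with overlapping groups. Col3a1, named after its value was seen, gave 3.85, 2.50, 2.43 and 1.97 in formoterol mice, against 5.61, 14.3, 4.13 and 3.54 in saline mice, a log2 change of -1.17 that did not pass (adjusted p = 0.0601). The number of falls ran to 5 without formoterol mouse 3, 6 without formoterol mouse 4 or saline mouse 1 and on slide 1 alone, 11 without saline mouse 2, and 13 under quantile normalization, and only 1 was called by the methods' t-test. The adjusted p of Col1a2 reached 0.0593 and that of Col6a3 0.0616 with a formoterol mouse left out. Fibroblast markers moved with this list and overlap it: 3 of 7 measured fell, all of them collagens, the summed level was 46.2 to 53.2 in formoterol mice and 58.8 to 77.9 in saline mice, and Dcn, the decorin gene, changed by 0.06 (adjusted p = 0.6). In a whole muscle, fewer cells of a type and less RNA per cell cannot be told apart.

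Of 16 vascular and hypoxia genes 3 rose (18.8%, against 6.99% of all named genes) and 6 fell (37.5%, against 5.07%). Egln3, an oxygen-sensing prolyl hydroxylase, measured 3.23, 2.36, 2.55 and 3.81 in formoterol mice, against 1.34, 1.18, 1.55 and 1.24 in saline mice (log2 change 1.15, SE 0.15, adjusted p = 0.00031). Cav1, the caveolin of endothelium and fat, measured 8.42, 6.19, 6.33 and 6.43 in formoterol mice, against 11.8, 14.3, 11.4 and 8.76 in saline mice (log2 change -0.75, SE 0.14, adjusted p = 0.0052). Formoterol mouse 1 was the highest of its group at Cav1 and still below every saline mouse. Emcn, an endothelial sialomucin (-0.71), and Gucy1a1, part of the guanylyl cyclase that senses nitric oxide (-0.69), fell as well. The 5 measured endothelial markers gave 1 rise, Eng, and 1 fall, Emcn, and a median of 0.04, with a summed level of 6.97 to 7.83 in formoterol mice and 7.59 to 8.72 in saline mice. Their part in the falls was not tested. The number of rises was 1 without formoterol mouse 2, 3 or 4.

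In the list of the contractile apparatus, 3 of 16 measured genes rose and 2 fell (31.2%, against 12.1% of all named genes), with a median of 0.10. In that of calcium handling and excitation, 0 of 17 rose and 2 fell (11.8%). Alpk2, an alpha kinase of muscle, measured 4.79, 3.81, 4.37 and 3.75 in formoterol mice, against 1.47, 1.40, 1.66 and 1.38 in saline mice (log2 change 1.5, SE 0.10, adjusted p = 2.63e-06), and Klhl40, which stabilises thin filament proteins, measured 3.07, 2.26, 1.95 and 1.93 in formoterol mice, against 1.27, 1.09, 1.25 and 1.24 in saline mice (log2 change 0.90, SE 0.14, adjusted p = 0.000995). Synpo2l, an actin-associated protein of the Z-disc, measured 1.83, 1.56, 1.38 and 1.59 in formoterol mice, against 4.2, 4.87, 4.2 and 3.89 in saline mice at a matched probe (log2 change -1.43, SE 0.10, adjusted p = 4.09e-06), and a second probe, detected in 0 formoterol and 4 saline mice, was at least 1.48-fold lower with formoterol, adjusted p = 0.00013. Both probes fell without overlap. Kif1b, a kinesin that moves mitochondria and vesicles, measured 1.36, 1.22, 0.981 and 0.849 in formoterol mice, against 2.17, 2.99, 2.84 and 2.04 in saline mice at a matched probe (log2 change -1.19, SE 0.16, adjusted p = 0.00051), while another probe of the gene gave only -0.32 (adjusted p = 0.0111). Atp1b4, a muscle protein related to sodium pump subunits, was at least 1.55-fold lower with formoterol, adjusted p = 0.00188, and Chrna1, the α subunit of the acetylcholine receptor, fell by 0.53 on the log2 scale. Of 5 fast fibre markers Myh1, a fast myosin heavy chain, fell (-0.27, adjusted p = 0.0211, named after its value was seen), a call lost without any 1 of formoterol mice 1 to 3 or saline mice 1 and 3, and the other 4, among them Actn3 and Aldoa, were not called. The summed level of the fast fibre markers was 209 to 221 in formoterol mice and 171 to 221 in saline mice, and that of 2 slow fibre markers 1.40 to 1.56 in formoterol mice and 1.40 to 1.74 in saline mice.

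Several large rises belonged to genes outside these groups. C2cd4b (matched probe) measured 1.82, 3.33, 1.47 and 3.65 in formoterol mice, against 0.484, 0.352, 0.407 and 0.583 in saline mice and was at least 4.2-fold higher with formoterol, adjusted p = 0.000142. Midn (matched probe), midnolin, measured 9.45, 9.09, 9.34 and 7.88 in formoterol mice, against 1.76, 1.74, 1.86 and 1.98 in saline mice (log2 change 2.28, SE 0.08, adjusted p = 8.2e-08), and Emd (matched probe), the nuclear envelope protein emerin, measured 2.41, 2.23, 2.95 and 2.13 in formoterol mice, against 0.592, 0.483, 0.634 and 0.675 in saline mice (log2 change 2.03, SE 0.13, adjusted p = 2.01e-06). Every formoterol mouse lay above every saline mouse at all 3. Nudt18, a hydrolase of oxidised nucleotides, measured 5.51, 4.44, 5.76 and 4.53 in formoterol mice, against 1.16, 1.17, 1.41 and 1.36 in saline mice (log2 change 1.99, SE 0.11, adjusted p = 9.55e-07), and Tuba1c, an α-tubulin, measured 1.74, 2.23, 1.78 and 1.36 in formoterol mice, against 0.656, 0.666, 0.612 and 0.790 in saline mice (log2 change 1.37, SE 0.14, adjusted p = 6.47e-05). The matched probes of Cbarp, a regulator of calcium channels (at least 2.95-fold higher), and of the RIKEN clone C330006P03 (1.92) completed the large rises. Of 61 splicing and RNA processing genes 6 rose (9.84%, near the 6.99% of all named genes), among them the splicing factor gene Isy1 (1.09) and Rbm20, which splices titin (0.52), and 2 to 7 rose with 1 mouse left out (2 without saline mouse 1).

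Markers of blood cells and genes induced by glucocorticoids were also measured. Hba-a1, an α-globin gene, measured 42.7, 49.8, 75.3 and 73.5 in formoterol mice, against 34.2, 15.7, 10.2 and 13.6 in saline mice (log2 change 1.82, SE 0.32, adjusted p = 0.00249). The formoterol mice were all above the saline mice, of which mouse 1 was the highest. Hba-a1 at 1 h measured 52.49, 46.35, 39.65 and 71.01 in formoterol mice, against 67.18, 52.47, 24.93 and 49.07 in saline mice. The 1 h change was 0.17 (adjusted p = 0.817), and the difference between times was not called (1.66, adjusted p = 0.0565). Saline mice 2 to 4 at 4 h lay below every mouse at 1 h for Hba-a1. Its copy Hba-a2 is nearly identical, so the probe may read both. The β-globin probes did not pass, Hbb-b1 with a change of 1.13 (adjusted p = 0.0707) and Hbb-b2 with 0.69 (adjusted p = 0.0529), both named after their values were seen. The summed level of the 3 erythroid markers was 47.9 to 82.0 in formoterol mice and 11.6 to 38.1 in saline mice, and without saline mouse 2 all 3 were called. S100a9, a neutrophil protein and also seen afterwards, rose by 0.83 and was the single neutrophil marker measured, at 0.798 to 0.937 in formoterol mice and 0.407 to 0.591 in saline mice. How far blood in the muscle took part in any other change was not tested. Of 3 macrophage markers, 1 lymphocyte marker and 3 adipocyte markers 0 were called by limma and 0 by the methods' t-test, with 1 macrophage marker lower and 1 adipocyte marker higher at an unadjusted p under 0.05. The list of genes induced by glucocorticoids had a median of 0.47. In it 6 of 12 rose (50%, against 6.99% of all named genes) and 0 fell. The rises were those of Mt1, Cdkn1a, Angptl4, Foxo1, S100a9 and Cxcl14, a chemokine (0.55). Sgk1 and Zbtb16, which also belong to the list, were not called (0.18, adjusted p = 0.507, and 0.38, adjusted p = 0.136). The lowest change in the list was -0.93, which was not called. At an unadjusted p under 0.05 the list held 1 fall, and 1 fall was called without saline mouse 1. Its members Mt1, Cdkn1a, Angptl4 and Foxo1 are also counted in lists described above. The list was drawn up with earlier results known, and glucocorticoid action was not tested. Of 19 chemokine, cytokine and interferon genes 6 rose (31.6%, against 6.99% of all named genes) and 1 fell (5.26%, against 5.07%). The rises were led by Ifi30, Litaf, a factor induced by lipopolysaccharide (0.90), and Stat3. The fall was that of Ly6e, an interferon-inducible surface protein (-0.32, adjusted p = 0.0251), named after its value was seen, and was lost without any 1 of formoterol mice 2 and 3 and saline mice 1 and 3.

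**Figure D4:**
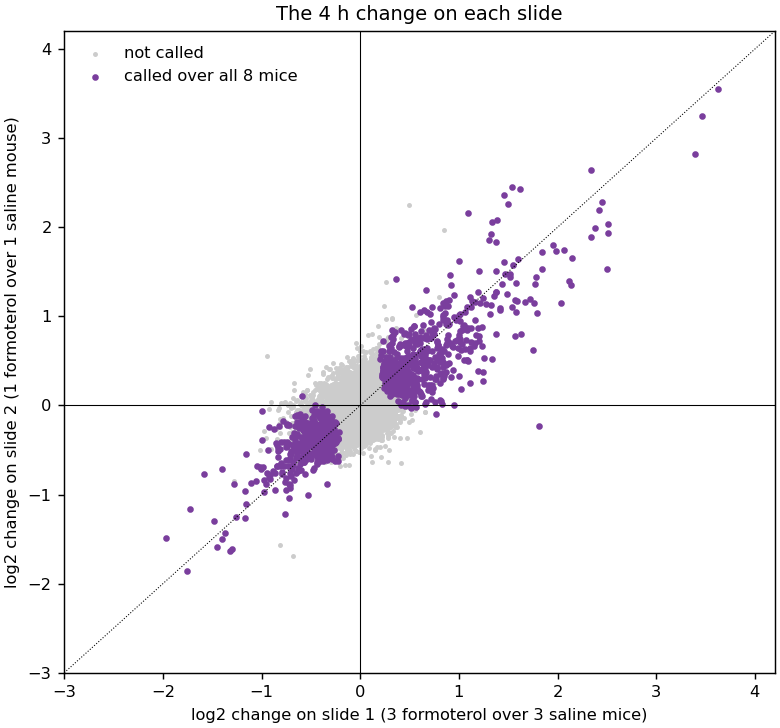
Change on slide 1 (horizontal axis, log2 of the mean of 3 formoterol over 3 saline mice) against the change on slide 2 (vertical axis, log2 of 1 formoterol over 1 saline mouse) for all probes, with the 977 called probes coloured. Of these, 970 have the same sign on both axes, and all 8 arrays made the calls, so the plot shows spread and is no separate test.

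Some probes passed from undetected to detected. A detection score of 1 was given in all 4 formoterol mice and in 0 of 4 saline mice for 53 probes, 51 of them called. It was given in 0 formoterol mice and all 4 saline mice for 63 probes, 34 of them called. Over all 7596 probes 12.9% were called, but these were picked by signal on the same arrays, so their calls are no separate result. The arrays also differed in detection, with 5835 to 6928 probes at a score of 1 in formoterol mice and 6107 to 8528 in saline mice. The part of this in the switches was not tested. Among the 53 were C2cd4b, Srxn1, Cbarp, Plk3, Crem and Cdkn1a, described above. Among the 63, Prnd, the prion-like protein doppel, was at least 1.55-fold lower with formoterol, adjusted p = 0.000491. It measured 0.462, 0.455, 0.425 and 0.410 in formoterol mice, against 0.968, 1.45, 0.905 and 0.758 in saline mice. The gene BC023105 (matched probe) was at least 1.39-fold lower with formoterol, adjusted p = 0.000799, and Mest, an imprinted gene, was at least 1.20-fold lower with formoterol, adjusted p = 0.00367. Where a gene had several kept probes (195 genes), 17 had more than 1 called and 0 had calls in opposite directions.

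The last question was how the response at 4 h differed from that at 1 h, which the other 8 mice measured. At 1 h 181 of 7596 probes were called (2.38%). The difference of the responses, 4 h minus 1 h, was called at 256 probes (3.37%), 167 positive and 89 negative, and 228 of these were called at 4 h. Mt1 had a log2 change of 3.61 at 4 h and 1.59 at 1 h, a difference of 2.02 (adjusted p = 0.000909). Srxn1 had 3.41 at 4 h and 0.75 at 1 h (difference 2.66, adjusted p = 8.12e-06). Ppargc1a had 2.39 at 4 h and 0.62 at 1 h (difference 1.78, adjusted p = 0.00313). These genes were further from saline at the later time. Foxo1 (difference 1.24), Alpk2 (1.28), Plin4 (1.05), Tuba1c (1.18) and Gpat3 (1.02) had changes between -0.04 and 0.31 at 1 h. No saline array at 4 h detected Foxo1 or Gpat3, so their differences are fitted values. Ddit4l (-1.33), Synpo2l (-1.27 at its matched probe) and Ppargc1b (-0.78) were lower at 4 h and near 0 at 1 h.

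Junb ran the other way, with a log2 change of 0.86 at 4 h and 2.38 at 1 h (difference -1.52, adjusted p = 0.00155), and so did Klf4, with 1.15 at 4 h and 1.99 at 1 h (difference -0.84, adjusted p = 0.0315). Both remained above saline at 4 h, and no saline array at 4 h detected Junb, so its change there is the fitted value and no bound. For C2cd4b (2.41 at 4 h on the fitted scale, 2.22 at 1 h, undetected in saline as Nr4a2 was), Slc25a25 (1.59 and 1.58), Nr4a2 (1.13 and 1.68), Dbp (-1.85 and -2.20) and Cdkn1c (-1.79 and -1.12) the difference was not called, with adjusted p of 0.897, 0.992, 0.294, 0.605 and 0.622 in that order. Cdkn1c at 1 h measured 1.86, 1.27, 1.37 and 1.51 in formoterol mice, against 6.36, 6.30, 1.56 and 1.72 in saline mice, so that its 1 h change came from saline mice 1 and 2, which lay on slide 2, while saline mice 3 and 4 on slide 3 were close to the formoterol mice. At 749 of the 977 probes called at 4 h the difference was not called, which does not show the responses at these probes to be equal. Of the 162 probes past the fold limit, 87 had a called difference. In all, 109 probes were called at both times, 105 of them in the same direction.

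**Figure D5:**
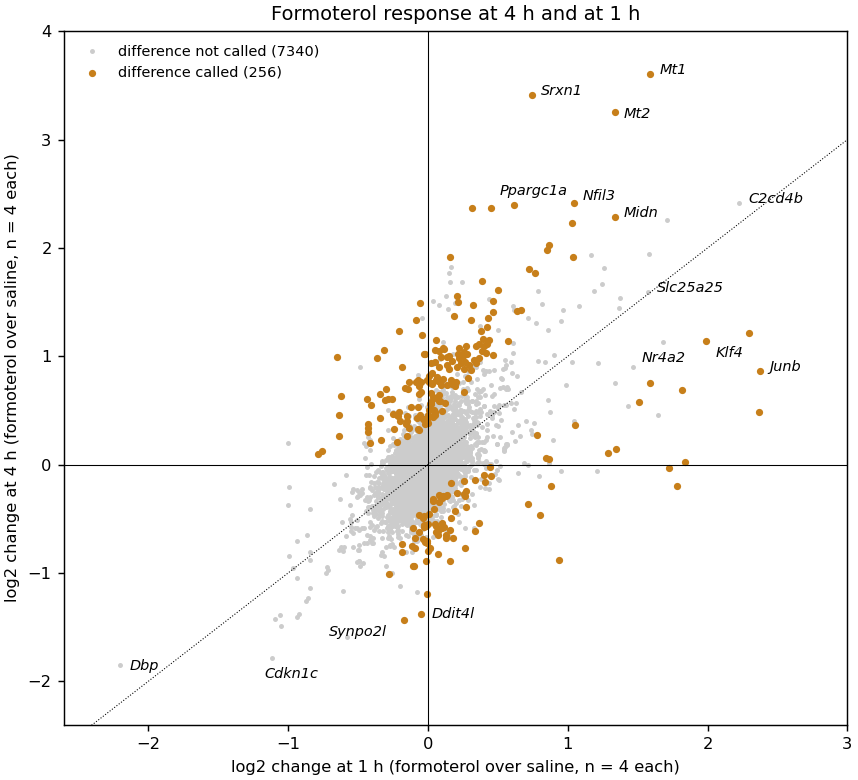
Log2 change at 4 h (vertical axis) against the change at 1 h (horizontal axis) for 7596 probes, 4 formoterol against 4 saline mice at each time, with the 256 probes of called difference coloured and equality dotted. Mt1, Srxn1 and Mt2 stand highest above the dotted line, Junb and Klf4 below it with large changes at 1 h, and Dbp lies near it at the lower left.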

How the data were processed

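Muscle RNA was amplified from each of 16 mice and hybridised to Sentrix Mouse-6 BeadChips, 1 mouse per array. The authors summarised beads in BeadStudio 1.5.1.3 and deposited an average bead intensity per probe in arbitrary units, without normalization (86.1 to 69801 over all probes and arrays), and a detection score, a fraction from 0 to 1. For the deposited ratio the authors divided each intensity in GeneSpring GX by the median of the 7596 used probes on its array. Recomputing the ratio here gave the same value within a relative 0.0025 at most. Dividing by a median subtracts no background, so changes of dim probes are understated.

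Probes were kept that reached a detection score of 1 in 4 or more arrays. The log2 of the deposited ratio of the 4 formoterol and 4 saline arrays at 4 h went into lmFit and eBayes of limma 3.58.1 (R 4.3.3) without covariates. The difference between times was fitted over all 16 arrays as an interaction. Python 3.11.15, pandas 2.3.3 and numpy 2.4.6 served for tables. The labels say that each array is a mouse, so p values measure the spread between mice. Where no array of a group reached a score of 1, the bound sets the mean of the bright group against, per array of the other group, the higher of the lowest detected signal and the probe's own, as means of log2 ratios. The mean of the bright group includes any of its arrays that did not detect the probe.

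Gene numbers were read from zero-padded IDs, which is an inference: of 2764 padded numbers of 5 or more digits 93.5% are mouse gene numbers, against 10.0% of unpadded ones. For 110 of the 116 genes in the study's tables exactly 1 kept probe had the folds and the 4 h adjusted p that the study printed, to the last printed digit or its neighbour, and the 32 named both ways had the same name. The other 4927 kept probes carry no name here. For Smad1, which the study measured by qRT-PCR, no probe was identified. Named genes are the 16 largest rises and 12 largest falls without overlap, the qRT-PCR genes, up to 4 called members of each of 35 lists, and up to 6 probes each way detected in 1 group only. A few of them are not reported here. Uncalled list members and dimmer probes that the text names were picked with their values in view. The members and lists were chosen with earlier results of these data and the study's tables known. Lists count 1 probe per gene, the brightest, named by ID. Replicate numbers were checked for pairing and do not pair the mice. Alternatives were quantile and normexp normalization, a common median with floor, no filter or a score of 0.99, the methods' t-test, trend and robust eBayes, all 16 arrays in the 4 h fit, slide as a block or alone, the replicate block, each mouse left out, the probe of largest change in lists, and an adjusted p under 0.01.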

Additional observations from a re-analysis of the deposited data

Results flagged for a closer look

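For 9 of the named genes 1 mouse lay apart from the other 3 of its group by Dixon's criterion at the 95% level, which chance meets in about 1 of 20 groups of 4, and 230 groups were looked at (115 probes in each of 2 groups). Mt1 had 3.30 in saline mouse 1, below 4.78 to 4.90 in the other 3 mice of that group. H2ac22 had 0.845 in formoterol mouse 2, above 0.749 to 0.753 in the other 3 mice of that group. H2ac10 had 2.40 in saline mouse 2, above 1.5 to 1.53 in the other 3 mice of that group. Id1 had 0.747 in saline mouse 4, above 0.547 to 0.567 in the other 3 mice of that group. Idh1 had 0.899 in saline mouse 4, below 0.994 to 1.00 in the other 3 mice of that group. Atp1b4 had 0.499 in formoterol mouse 4, below 0.545 to 0.546 in the other 3 mice of that group. Tcf4 had 4.59 in saline mouse 4, below 5.62 to 5.77 in the other 3 mice of that group. Cav1 had 8.42 in formoterol mouse 1, above 6.19 to 6.43 in the other 3 mice of that group. Cxcl14 had 1.34 in formoterol mouse 4, below 1.83 to 1.90 in the other 3 mice of that group.

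The response differed between 4 h and 1 h at 47 probes of the named genes, by limma's test of the difference with an adjusted p under 0.05 over 7596 probes (adjusted p 8.12e-06 to 0.0465 among them). The values that follow are that difference, the log2 change at 4 h minus the log2 change at 1 h. No saline array at 4 h detected Crem, Foxo1, Junb, Gpat3, Ifi30 or Srxn1 (second probe), and no formoterol array at 4 h detected BC023105, Synpo2l (second probe) or Atp1b4, so the differences of these are fitted values against background. In 17 of the 47 the rise at 4 h was larger by at least 1: Srxn1 (first probe) 2.66, Srxn1 (second probe) 2.05, Mt1 2.02, Mt2 1.92, Ppargc1a 1.78, C330006P03 1.76, Nfil3 1.37, Alpk2 1.28, Foxo1 1.24, Impact 1.20, Tuba1c 1.18, Emd 1.16, Nudt18 1.13, Crem 1.09, Plin4 1.05, Gpat3 1.02 and Cebpb 1.00. In 18 others it was larger by less than 1: Midn 0.95, Pde4d 0.88, Fbxo34 0.86, Stat3 (second probe) 0.81, Lpin1 0.80, Stat3 (first probe) 0.78, Ciapin1 0.75, Egln3 0.72, Ifi30 0.70, Klhl40 0.69, Isy1 0.69, Ftl1 0.66, Xbp1 0.64, Smad3 0.56, Ubb 0.41, Tkt 0.41, Neu1 0.40 and Eif6 0.38. In 10 the probe was lower at 4 h than at 1 h relative to saline: Ddit4l -1.33, Synpo2l (first probe) -1.27, Kif1b (matched probe) -1.18, Atp1b4 -0.88, BC023105 -0.83, Ppargc1b -0.78, Emcn -0.70, Acvr1 -0.66, Bmpr1a -0.64 and Synpo2l (second probe) -0.62. In 2 the rise was smaller at 4 h: Junb -1.52 and Klf4 -0.84.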

How the results depend on the processing

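Of 7596 probes 977 were called, and 682 to 1339 with 1 mouse left out; past the fold limit the counts were 162 and 140 to 178, and for the difference between times 256 and 185 to 307. The fit over all 46120 probes called 353 and, for the difference, 118, since more probes were tested, and an adjusted p under 0.01 left 537 and 114. The methods' t-test called 394 probes on log2 ratios and 313 on linear ratios, where 79 passed the fold limit. After normexp background correction and quantile normalization 247 probes passed the fold limit, of 1335 called; quantile normalization alone called 1309. The share of rises was 57.3% of calls with the deposited ratio, 49.5% under quantile normalization and 49.8% with normexp, so the overall balance of rises and falls depends on the scaling. Replicate numbers do not pair the mice: the correlations of same-numbered deviations were −0.06, −0.26, −0.11 and 0.26. With the replicate block 812 probes were called, 166 past the fold limit and 269 for the difference. With slide as a fixed block 1049 probes were called, with slide as a random block 1004, on slide 1 alone 858. Of 2644 alternative values of 115 named probes 0 changed sign as calls, 290 lost their call (67 in the linear t-test, 42 in the log2 t-test, 41 without the filter), and the 59 that moved by more than the spread came from slide 2, which holds 1 mouse a group. Taking the probe of largest change for each gene, the medians of 34 of 34 lists with 3 or more measured genes kept their sign, and the counts of calls changed in 3: a fall of Akap9 joined the cyclic AMP list, a rise of Pfkm the glucose list and a rise of E2f6 the cell cycle list. With 4 mice a group the smallest p of an exact permutation test is 0.0286. Array number and dim probes limit precision: the median signal of the 7596 used probes was 2.33 to 3.74 times background.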
